A study of Mus musculus with 3 samples.

Results

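The miRNAs described here were mmu-miR-142a-3p, mmu-miR-142a-5p, mmu-miR-150-5p and mmu-miR-342-3p, 4 of the 1138 mature mouse miRNAs with a read count in each library. They were chosen by name, as miRNAs known from leukocytes, with earlier results of these data at hand. All 4 had reads in all 3 libraries. The libraries came from the tibialis anterior (TA) muscle of WT C57BL/6 mice aged 10 weeks per the labels, without injury (day 0) and at days 1 and 3 after intramuscular cardiotoxin (CTX), a component of cobra venom that kills myofibers. Each library was made from 4 pooled samples, and each time point had 1 library. There were therefore no replicates, and every test compared a pair of libraries, not the conditions. The RNA was that of whole muscle, no cells were sorted, and the cell of origin of a read was not measured.

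A miRNA is cut from a hairpin precursor, and either arm of the hairpin (5p or 3p) can be loaded into the silencing complex, where the seed at bases 2 to 8 pairs with target mRNAs. miR-142 is made in nearly all blood cell lineages and is widely used as a mark of hematopoietic cells. miR-150 is abundant in mature lymphocytes, where it is known to repress the transcription factor Myb, and it has also been found in monocytes and in vessels. miR-342 is made from an intron of Evl, a gene for an actin regulator, and is known from lymphoid and myeloid cells. miR-223, which is enriched in neutrophils and monocytes, was kept out of the set and served as the myeloid reference.

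RefSeq mature sequences (GRCm38.p6) were found for 953 of the 1138 miRNAs and for 3 of the 4 described here. The 3 are shown because each has a seed of its own, in capitals (5′ to 3′), followed by miR-142b, whose locus lies opposite that of miR-142a.
mmu-miR-142a-3p: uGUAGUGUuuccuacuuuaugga
mmu-miR-142a-5p: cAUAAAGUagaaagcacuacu
mmu-miR-342-3p: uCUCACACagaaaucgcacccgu
mmu-miR-142b: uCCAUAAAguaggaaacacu

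For the 3 seeds, 0 other mature miRNAs of the RefSeq table carried the same 7 bases. The reverse complement of miR-142b, aguguuuccuacuuuaugga, is contained in miR-142a-3p. Mir142 lies at chr11:87756864-87756927 on the plus strand, in an intron of the noncoding host gene Mir142hg in the GENCODE M21 annotation of GRCm38, and Mir142b covers it on the minus strand at chr11:87756841-87756955. Mir342 lies in an intron of Evl, on the same strand, at chr12:108658620-108658718. Mir150 lies at chr7:45121757-45121821 on the plus strand, outside any other annotated gene, with the start of the noncoding Gm45552 96 bases downstream on the same strand.

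The reads counted per library summed to 8507580 at day 0, 6421056 at day 1 and 9795076 at day 3. Levels are given in CPM, reads per 1000000 reads of the library, with Wilson 95% intervals. A floor of 3 reads corresponded to 0.353 CPM at day 0, 0.467 at day 1 and 0.306 at day 3. Intervals and floors cover counting error only, as PCR copies of 1 molecule are counted as separate reads. The 4 miRNAs together held 0.492% of the reads at day 0, 1.15% at day 1 and 0.537% at day 3. A miRNA was called higher or lower when its CPM differed at least 2-fold with an adjusted p of at most 0.001 by Fisher's exact test (two-sided, on read numbers), adjusted by Benjamini-Hochberg over all miRNAs that had a read in either library.

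Both arms of miR-142a rose steeply. mmu-miR-142a-3p had 214 reads at day 0, 10812 at day 1 and 7995 at day 3. Its level was 25.2 CPM at day 0 (22.0 to 28.8), 1684 CPM at day 1 (1652 to 1716) and 816 CPM at day 3 (799 to 834). The uninjured library was thus far below the other two, and its level was 66.9-fold higher at day 1 (log2 fold change 6.06, 95% interval 5.87 to 6.26) and 32.4-fold higher at day 3 (5.02, 4.82 to 5.22) than at day 0. By number of reads it went from rank 197 to ranks 54 and 72.

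mmu-miR-142a-5p had 181 reads at day 0, 5698 at day 1 and 5406 at day 3. Its level was 21.3 CPM at day 0 (18.4 to 24.6), 887 CPM at day 1 (865 to 911) and 552 CPM at day 3 (537 to 567). It was called higher on both days, 41.7-fold at day 1 (log2 fold change 5.38, 5.17 to 5.60) and 25.9-fold at day 3 (4.70, 4.48 to 4.91).

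mmu-miR-150-5p was already abundant without injury and did not pass the fold threshold on either day when scaled to the library total. It had 40266 reads at day 0, 53339 at day 1 and 31313 at day 3. Its level was 4733 CPM at day 0 (4687 to 4779), 8307 CPM at day 1 (8237 to 8377) and 3197 CPM at day 3 (3162 to 3232). The day 1 library was the highest and the day 3 library the lowest. Relative to day 0, its log2 fold change was 0.81 at day 1 (0.79 to 0.83) and -0.57 at day 3 (-0.59 to -0.54). Its sign at day 1 depended on the scaling of the libraries, with -0.13 under edgeR's TMM factors and -0.23 under DESeq2's median-of-ratios factors, and under totals that left out the 10 most abundant miRNAs of each library it was -0.019, within counting error of 0 (exact binomial test, adjusted p = 0.0928). Under the same 3 scalings its fall at day 3 passed the threshold.

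mmu-miR-342-3p rose less than miR-142a and was highest at day 3. It had 1190 reads at day 0, 3729 at day 1 and 7856 at day 3. Its level was 139.9 CPM at day 0 (132 to 148), 581 CPM at day 1 (562 to 600) and 802 CPM at day 3 (785 to 820). It was called higher on both days, 4.15-fold at day 1 (log2 fold change 2.05, 1.96 to 2.15) and 5.73-fold at day 3 (2.52, 2.43 to 2.61). With an assumed coefficient of variation of 0.4 between pooled libraries of a time point, neither rise of miR-342-3p passed the 0.001 threshold. By edgeR's exact test with Benjamini-Hochberg adjustment, the adjusted p was 0.114 at day 1 and 0.0332 at day 3.

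**Figure D1:**
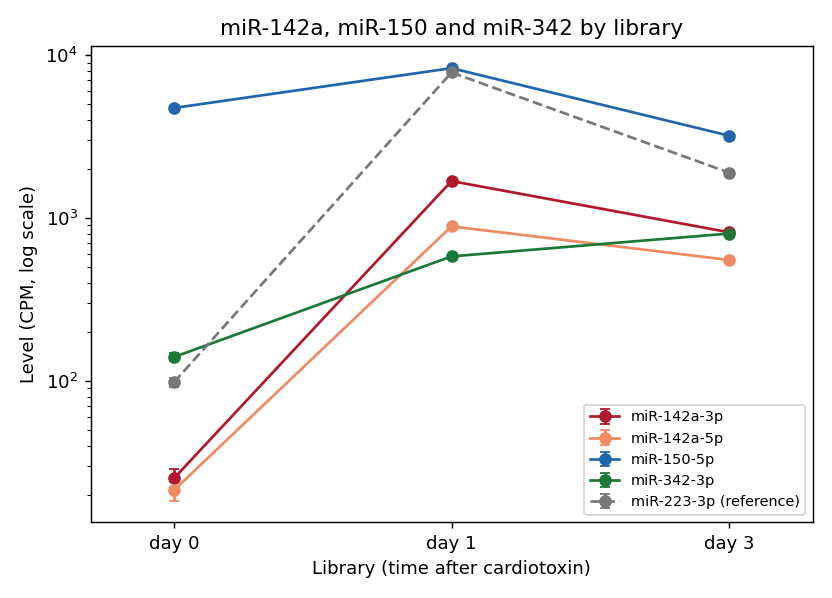
Level of each miRNA in CPM (log axis) in the day 0, day 1 and day 3 libraries, with Wilson 95% intervals of the counting error (mostly smaller than the points) and miR-223-3p as a dashed reference. The arms of miR-142a start at 25.2 and 21.3 CPM and peak at day 1, miR-150-5p starts at 4733 CPM, and miR-342-3p alone among the 4 is highest at day 3.

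Of the 4 miRNAs, 3 were called higher at day 1 and 0 lower, where 25.1% of the 998 miRNAs tested were called higher and 4.31% lower. The same 3 were called higher at day 3 and 0 lower, against 26.1% called higher and 4.36% lower among 1056 tested. Both comparisons share the day 0 library. Under TMM factors 12.9% were called higher and 10.7% lower at day 1, and 15.6% and 10.3% at day 3. The median log2 fold change of the 4 was 3.72 at day 1 and 3.61 at day 3, beside 0.90 and 0.93 over the miRNAs that had at least 10 reads in each of the 2 libraries (393 at day 1 and 407 at day 3). Of these miRNAs, 98.5% had a lower log2 fold change at day 1 than miR-142a-3p, 98.2% a lower one than miR-142a-5p, 77.4% than miR-342-3p and 47.8% than miR-150-5p. At day 3 these shares were 97.5%, 95.6%, 79.6% and 18.2%. The value of miR-150-5p thus lay beside the median of all miRNAs at day 1 and in the lower part of the distribution at day 3.

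**Figure D2:**
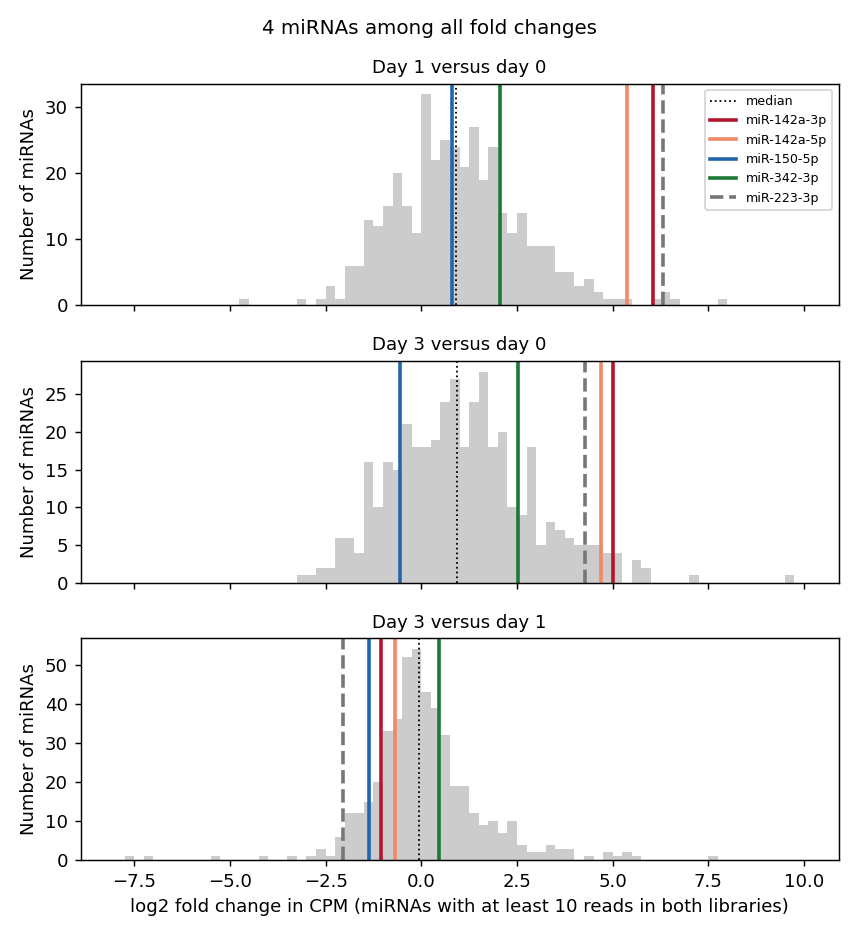
Number of miRNAs by log2 fold change in CPM (x axis, bins of 0.25) for each pair of libraries, over miRNAs that had at least 10 reads in both. Coloured lines mark the 4 miRNAs, the dashed line miR-223-3p and the dotted line the median, and both arms of miR-142a lie in the upper tail for days 1 and 3 against day 0.

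A share of the library also moves with the most abundant miRNAs, so the fold changes were recomputed under other scalings. TMM factors shifted every log2 fold change by -0.94 at day 1 and -0.93 at day 3, and median-of-ratios factors shifted them by -1.04 and -1.12. Over the library total, these 2 sets of factors, totals without the 10 most abundant miRNAs of each library and the deposited expression values with and without scaling, the log2 fold change of miR-142a-3p ranged from 5.02 to 6.06 at day 1 and from 3.90 to 5.16 at day 3. That of miR-142a-5p ranged from 4.34 to 5.38 and from 3.58 to 4.86. For miR-342-3p the ranges were 1.01 to 2.05 and 1.40 to 2.67, so that both rises stayed past 2-fold. For miR-150-5p they were -0.23 to 0.81 and -1.69 to -0.29. The change of miR-150-5p at day 3 became a call, lower, at -1.49 under TMM, at -1.69 under the median of ratios and at -1.30 when the 10 most abundant miRNAs were left out of the totals.

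**Figure D3:**
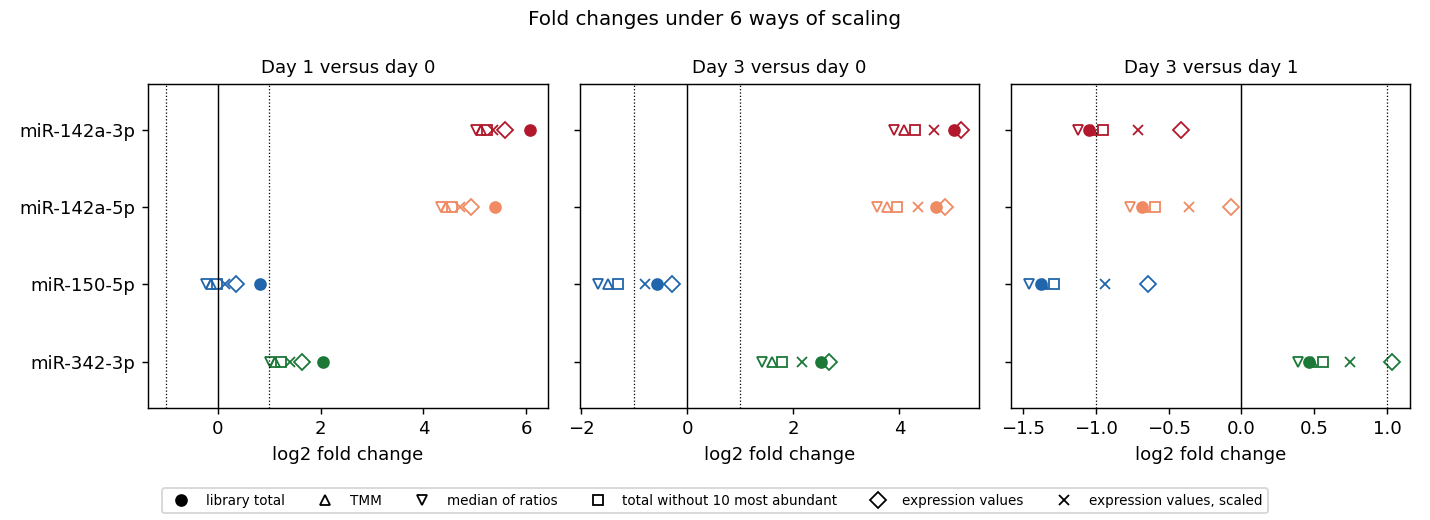
Log2 fold change (x axis) of each of the 4 miRNAs for the 3 pairs of libraries under the library total (filled circle) and 5 other scalings or values (open symbols and crosses), with dotted lines at a 2-fold change. At day 1 the points of miR-150-5p lie on both sides of 0, from -0.23 to 0.81, whereas those of both arms of miR-142a stay above 4.

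Between days 1 and 3 the 4 miRNAs did not move together. Relative to day 1, miR-150-5p fell at day 3 to 0.385 of its level (log2 fold change -1.38, -1.40 to -1.36) and miR-142a-3p to 0.485 of its level (-1.04, -1.09 to -1.0), and both were called lower. miR-142a-5p was at 0.622 of its day 1 level (-0.69, -0.74 to -0.63) and miR-342-3p at 1.38 times its day 1 level (0.47, 0.41 to 0.52), and neither passed the fold threshold. In this comparison 9.6% of the 1104 miRNAs tested were called higher and 7.16% lower, and 0 and 2 of the 4 were. TMM factors shifted the log2 fold changes of this comparison by 0.02 and median-of-ratios factors by -0.08, and both calls stayed. The call of miR-142a-3p was close to the threshold and was lost at -0.95 with totals without the 10 most abundant miRNAs, and both calls were lost with the deposited expression values, scaled or not. Neither fall passed the test when a coefficient of variation of 0.2 between pooled libraries of a time point was assumed. By edgeR's exact test, the adjusted p was 0.0714 for miR-142a-3p and 0.00847 for miR-150-5p.

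A ratio of the reads of 2 miRNAs within a library does not depend on the scaling. All 6 pairs were compared in the 3 pairs of libraries, and 17 of the 18 ratios differed at an adjusted p of at most 0.001 (two-sided Fisher's exact test, Benjamini-Hochberg over the 18). miR-150-5p had 33.8 reads for each read of miR-342-3p at day 0, 14.3 at day 1 and 3.99 at day 3. From day 0 to day 3 the log2 fold change of miR-150-5p was therefore 3.09 below that of miR-342-3p (difference -3.09, 95% interval -3.18 to -3.00). For each read of miR-342-3p, miR-142a-3p had 0.180 reads at day 0, 2.90 at day 1 and 1.02 at day 3. Its change relative to miR-342-3p was 4.01 at day 1 (3.79 to 4.23) and 2.50 at day 3 (2.29 to 2.72), both relative to day 0. Between days 1 and 3 the sign turned, with a difference of -1.51 (-1.58 to -1.44).

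Among the reads of the 4 miRNAs, those of miR-150-5p made up 96.2% at day 0, 72.5% at day 1 and 59.6% at day 3. The share of miR-142a-3p was 0.511% at day 0, 14.7% at day 1 and 15.2% at day 3. That of miR-142a-5p was 0.432%, 7.74% and 10.3%. miR-342-3p held 2.84%, 5.07% and 14.9%. By level, miR-150-5p came first in each library. miR-342-3p was second at day 0, last at day 1 and level with miR-142a-3p at day 3, where their 7856 and 7995 reads did not differ beyond counting error (exact binomial test, two-sided p = 0.273). At day 0 the 2 arms of miR-142a likewise did not differ beyond counting error (p = 0.107 by the same exact test). All other neighbours in the order differed. Reads of different miRNAs are compared here, and any preference of the adapter ligation for some sequences was not tested.

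**Figure D4:**
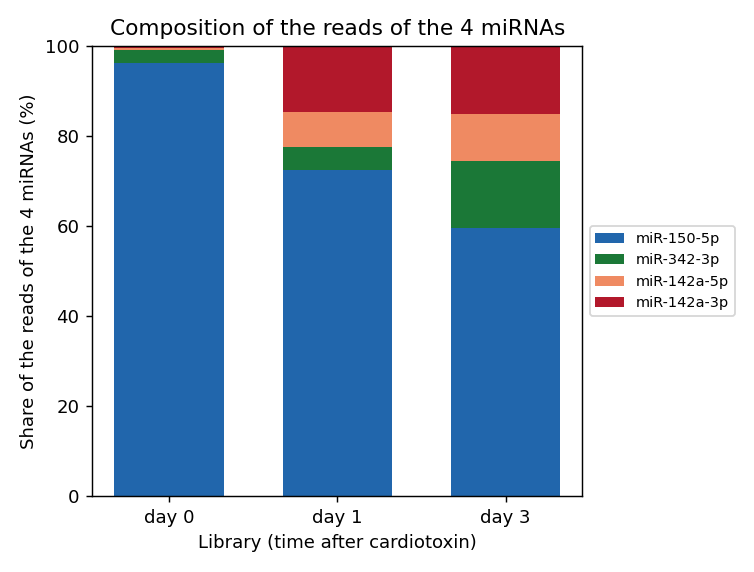
Share (y axis, percent) of each miRNA in the summed reads of the 4 miRNAs in the day 0, day 1 and day 3 libraries, as stacked bars. The part of miR-150-5p shrinks from 96.2% to 72.5% and 59.6%, and that of miR-342-3p widens to 14.9% at day 3.

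The arms of a hairpin give another comparison within a library. The hairpin of Mir142 is shown with both arms in capitals, since both were abundant: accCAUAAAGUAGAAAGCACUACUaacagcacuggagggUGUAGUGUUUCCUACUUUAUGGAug. miR-142a-3p had 1.18 reads for each read of the 5p arm at day 0, where the arms did not differ beyond counting error, and exceeded it with 1.90 at day 1 and 1.48 at day 3. The 5p arm held 45.8% of the reads of both at day 0 (41.0 to 50.8), 34.5% at day 1 (33.8 to 35.2) and 40.3% at day 3 (39.5 to 41.2). The share at day 1 was the lowest, and the rise at day 1 was larger for the 3p arm by 0.68 on the log2 scale (0.39 to 0.97; Fisher's exact test, p = 5.36e-06 after adjustment over the 18 ratios). From day 0 to day 3 the arms differed by 0.32 (0.03 to 0.61; p = 0.0329 after the same adjustment of Fisher's exact test), the 1 ratio of the 18 that did not pass.

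miR-150 and miR-342 were read almost entirely from the arms described here. miR-150-3p had 23 reads at day 0, 25 at day 1 and 21 at day 3, between 0.0468% and 0.0670% of the reads of both arms. Its change differed from that of miR-150-5p by -0.29 at day 1 (-1.10 to 0.53) and 0.23 at day 3 (-0.62 to 1.09) on the log2 scale, intervals too wide to tell the arms apart. miR-342-5p had 60 reads at day 0, 239 at day 1 and 460 at day 3. It held 4.80% of the reads of both arms at day 0 (3.75 to 6.13), 6.02% at day 1 (5.32 to 6.81) and 5.53% at day 3 (5.06 to 6.04). It was called higher on both days, with log2 fold changes of 2.40 (1.99 to 2.81) and 2.74 (2.35 to 3.12). The difference from miR-342-3p was 0.35 at day 1 (-0.07 to 0.77) and 0.22 at day 3 (-0.18 to 0.61), not distinguishable from 0 at this depth.

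miR-142b, from the strand opposite Mir142, had 0 reads at day 0, 60 at day 1 and 51 at day 3. Against a floor of 3 reads at day 0, it was at least 26.5-fold higher at day 1 and at least 14.8-fold higher at day 3. Its reads were 0.552% of those of miR-142b and miR-142a-3p together at day 1 (0.429 to 0.710) and 0.634% at day 3 (0.482 to 0.832). At day 0, 0 reads beside 214 of miR-142a-3p allowed a share of up to 1.40%, so a change in this share was not detectable at this depth. How the counting told the strands of this locus apart is not given in the sources used here.

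Against the myeloid reference miR-223-3p, 11 of the 12 ratios of reads differed between libraries. miR-223-3p had 97.8 CPM at day 0, 7815 at day 1 and 1896 at day 3. The rise of miR-142a-3p at day 1 differed from that of miR-223-3p by -0.26 on the log2 scale (-0.47 to -0.04; Fisher's exact test, p = 0.0248 after Benjamini-Hochberg adjustment over the 12 ratios to miR-223-3p), and this was the 1 ratio of the 12 that did not pass 0.001. From the deposited expression values this difference was 0.015, of the opposite sign. At day 3, again relative to day 0, miR-142a-3p had risen more than miR-223-3p (difference 0.74, 0.52 to 0.96). The other arm of the reference, miR-223-5p, had 12 reads at day 0 and rose by 5.59 at day 3 (4.77 to 6.41). This value was above 5.02 for miR-142a-3p and 4.70 for miR-142a-5p, and these differences were not tested. The rise of miR-142a-5p was smaller than that of miR-223-3p at day 1 (difference -0.94, -1.17 to -0.70) and larger at day 3 (0.42, 0.18 to 0.66), though the latter no longer passed with reads drawn down to equal depth (0.41; Fisher's exact test, adjusted p = 0.0031). From day 1 to day 3, all 4 fell less than miR-223-3p or rose, with differences of 1.00 for miR-142a-3p (0.95 to 1.05), 1.36 for miR-142a-5p (1.30 to 1.42), 0.67 for miR-150-5p (0.63 to 0.70) and 2.51 for miR-342-3p (2.45 to 2.57). The other arm, miR-223-5p, also fell less than miR-223-3p, with a log2 fold change of -0.70 (-0.85 to -0.55). This was 1.34 above that of miR-223-3p (1.19 to 1.50). The falls of miR-142a-3p (-1.04) and miR-150-5p (-1.38) were larger than that of miR-223-5p. For each read of miR-223-3p, miR-150-5p had 48.4 reads at day 0, 1.06 at day 1 and 1.69 at day 3. For miR-342-3p the ratio went from 1.43 to 0.0743 and 0.423.

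**Figure D5:**
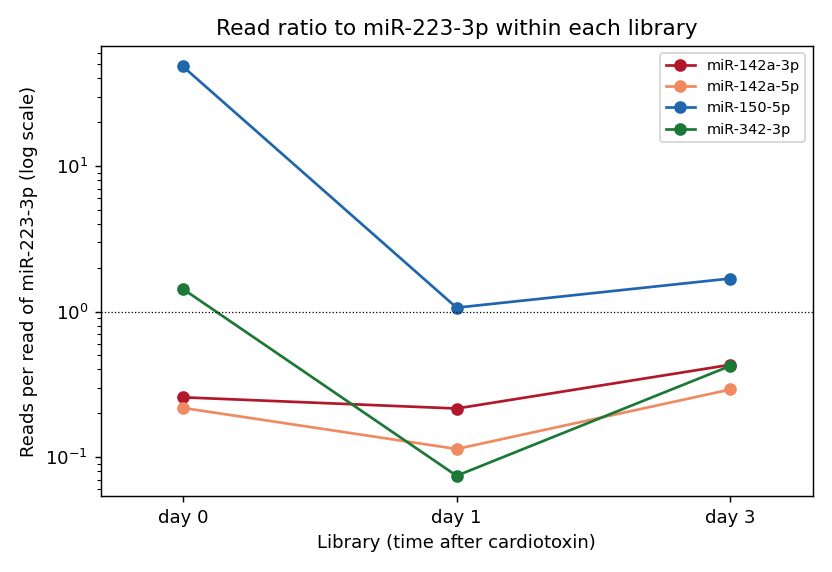
Reads of each miRNA for each read of miR-223-3p (log axis) within the day 0, day 1 and day 3 libraries. miR-142a-3p stays between 0.215 and 0.431, whereas miR-150-5p goes from 48.4 to 1.06 and 1.69.

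The miRNAs with the most similar pattern were sought among 310 others with a mean of at least 10 CPM, by the distance between the pairs of log2 fold changes of days 1 and 3 relative to day 0, with 1 CPM added to each level. Nearest to miR-142a-3p were miR-223-5p (distance 0.50) and miR-21a-3p (0.50), and nearest to miR-142a-5p were miR-223-5p (0.29) and miR-18a-3p (0.86). At day 0 miR-223-5p had 12 reads, miR-21a-3p 28 and miR-18a-3p 0, so these distances depend on the added CPM and that of miR-18a-3p is set by it. Nearest to miR-150-5p were miR-143-3p (0.11), an abundant miRNA of smooth muscle and stromal cells, and miR-139-5p (0.17). Nearest to miR-342-3p were its partner arm miR-342-5p (0.21) and miR-125a-3p (0.25). Under TMM factors they were miR-125a-3p (0.27) and miR-574-5p (0.27). These distances rest on 3 libraries and describe likeness alone.

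Lists of miRNAs known from other cell types also changed in the same libraries, here scaled to the library total. Among all miRNAs tested, 25.1% were called higher and 4.31% lower at day 1, and 26.1% and 4.36% at day 3. The 7 myofiber miRNAs summed to 354359 CPM at day 0, 143883 at day 1 and 118148 at day 3, with 3 of 7 called lower at day 1 and 5 of 7 at day 3, and miR-1a-3p, which had the most reads of these 7 over the 3 libraries, went from 233587 to 73841 and 88096 CPM. The 3 erythroid miRNAs, which mark blood in the tissue, summed to 7145, 25335 and 12564 CPM, with 3 of 3 called higher at day 1 and 0 at day 3. The 2 arms of endothelial miR-126a summed to 59427, 132923 and 58732 CPM, with 2 of 2 called higher at day 1 and 0 at day 3. The 5 stromal miRNAs summed to 36928, 67452 and 31586 CPM, with 3 of 5 called higher on each day. The 7 epithelial miRNAs summed to 28.9, 247 and 153.5 CPM, with 6 of 7 called higher at day 1 and 5 of 7 at day 3. Like miR-150-5p, the sums of the erythroid, endothelial, stromal and epithelial lists were highest at day 1, and their part in its values was not tested. Most of the stromal sum was miR-143-3p (34278, 62189 and 24829 CPM), and 2 of the 5 stromal miRNAs were highest at day 3. None of the miRNAs of these 5 lists was at 0 reads in a library. Under TMM factors (chosen for the lists after seeing the data), 0 of 3 erythroid, 0 of 2 endothelial, 1 of 5 stromal and 3 of 7 epithelial miRNAs were called higher at day 1, and 5 of 7 myofiber miRNAs lower. Of all miRNAs tested, these factors called 12.9% higher and 10.7% lower at day 1. At day 3 under TMM factors, 1 of 2 endothelial and 2 of 5 stromal miRNAs were called lower, 1 of 5 stromal and 3 of 7 epithelial ones higher, and 5 of 7 myofiber ones lower. The shares of all miRNAs tested were 15.6% higher and 10.3% lower. Under median-of-ratios factors 2 of 2 endothelial miRNAs were called lower at day 3, beside 11.7% of all tested. Under totals without the 10 most abundant miRNAs 0 of 2 were, beside 8.9%.

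Of 6 other immune-cell miRNAs (both arms of miR-155, miR-146a-5p, miR-146b-5p, miR-181a-5p and miR-181b-5p), 2 were called higher at day 1, 3 at day 3 and 0 lower, beside 25.1% and 26.1% of all miRNAs called higher, and miR-155-3p had 0 reads at days 0 and 1. Under TMM factors 2 were called higher at day 1, and 1 higher and 1 lower at day 3. Among all miRNAs tested, TMM factors gave 12.9% higher at day 1, and 15.6% higher and 10.3% lower at day 3. Their sum went from 11555 CPM at day 0 to 19583 at day 1 and 12711 at day 3, most of it miR-181a-5p, which is also made outside blood cells and had 10295, 15919 and 8149 CPM. In bulk tissue, more cells of a type and more of a miRNA per cell cannot be told apart for any of these miRNAs.

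Beside the reads, the authors deposited an expression value for each miRNA, a whole number that never exceeded the read count. For miR-150-5p it was 31920 at day 0, 40794 at day 1 and 26127 at day 3, or 79.3%, 76.5% and 83.4% of the reads. For the other 3 miRNAs it was between 94.1% and 99.5% of the reads. The share was lower for miRNAs with more reads, down to 8.09% for miR-1a-3p with 1987261 reads at day 0. Ratios of the read numbers of abundant miRNAs are therefore compressed on this scale, but changes in CPM were not always. The log2 fold change of miR-150-5p at day 3 relative to day 0 was -0.57 in CPM and -0.29 from the values as deposited. It was -0.80 from the values divided by their sum in each library. Taken from these values, the direction was that of the CPM for each of the 12 log2 fold changes of the 4 miRNAs. From day 1 to day 3 the values as deposited, which are not divided by a library total, gave log2 fold changes of -0.64 for miR-150-5p, -0.42 for miR-142a-3p and 1.03 for miR-342-3p. Divided by their sum in each library, as CPM are, they gave -0.93, -0.71 and 0.75, and none of the 3 passed the fold threshold.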

How the data were processed

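Small RNAs of 18 to 30 nucleotides from TA muscle were sequenced on the BGISEQ platform, with 1 library of 4 pooled samples at each of 3 time points. The submitters' processing notes name HISAT, Bowtie2 and the build GRCm38.p6, and the counter is not given in the sources used here. The authors deposited a raw read count for each mature miRNA and an expression value, handled as a score since its making is not described. The labels mention adapters with unique barcodes, and whether the score counts them is not stated.

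Counts were divided by the library total. A replicate model could not be fitted with 1 library per group, so Fisher's exact test was used at the thresholds of the study's methods, which name no test (at least 2-fold, adjusted p up to 0.001). Log2 fold changes and their differences have Wald 95% intervals. The miRNAs and lists were chosen with earlier results of these data known. The miRNAs named were the 4, their partner arms, miR-142b, miR-223, the 2 nearest by pattern to each, any with a shared seed, and the most abundant of each cell-type list; miR-155, miR-146 and miR-181b were named as list contents. Python 3.11.15, scipy 1.17.1, R 4.3.3, edgeR 4.0.16 and DESeq2 1.42.0 were used. A minimum of 10 reads, a pseudocount of 1 CPM, a 4-fold threshold, an adjusted p of 0.05, assumed coefficients of variation of 0.2 and 0.4 and reads drawn down to 6421056 per library were also tried.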

Additional observations from a re-analysis of the deposited data

Results flagged for a closer look

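For 2 of the 4 miRNAs the level at day 3 differed from that at day 1 by at least 2-fold with an adjusted p of at most 0.001. Those of miR-142a-5p and miR-342-3p also differed by Fisher's exact test (adjusted p = 2.19e-136 and 2.27e-60), but by less than 2-fold. miR-142a-3p was lower at day 3 than at day 1 by a log2 fold change of -1.04, and miR-150-5p by -1.38. The tests compare single libraries, and the differences have no replicate check.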

How the results depend on the processing

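Of 144 log2 fold changes and 90 differences between them under other settings, 124 and 86 kept their direction and their side of the threshold. Of these, 52 and 28 had the main value, as only a test, threshold or read minimum changed, so their direction was fixed. Differences from expression values used the p of the reads, so only their direction could change. The number of the 4 miRNAs called was 4 instead of 3 at day 3 under totals without the 10 most abundant miRNAs, the median of ratios and TMM, and 2 on both days with a coefficient of variation of 0.4. For miR-150-5p, the log2 fold change at day 1 was reversed to -0.13 under TMM factors, -0.23 under median-of-ratios factors and, within counting error of 0, -0.019 under totals without the 10 most abundant miRNAs, and its log2 fold change at day 3 became called at -1.49, -1.69 and -1.30. These scalings shift all miRNAs alike, and the log2 shift of the last was -0.83 at day 1 and -0.74 at day 3. With a coefficient of variation of 0.4, the rises of miR-342-3p (2.05 at day 1 and 2.52 at day 3) were no longer called, and those of both arms of miR-142a were.

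Calls were least stable between days 1 and 3, whereas the 3 reversed log2 fold changes were of day 1 relative to day 0. The number of the 4 miRNAs called was 1 with totals without the 10 most abundant miRNAs or with expression values for the fold change, and 0 with a fold change of 4, with a coefficient of variation of 0.2 or 0.4, or with expression values divided by their library sum (chosen after seeing the data). miR-142a-3p was no longer called at -0.95 without the 10 most abundant miRNAs, at -0.42 with expression values and at -0.71 with scaled expression values. miR-150-5p was no longer called at -0.64 and -0.93 with these expression values. At values of -1.04 and -1.38, neither was called with a fold change of 4 or either coefficient of variation (adjusted p = 0.894 and 0.648 at 0.4 by edgeR's exact test). miR-342-3p became called at 1.03 with expression values as deposited, which are not divided by a library total, and was not called at 0.75 with scaled ones. Expression values were a smaller share of the reads for more abundant miRNAs, and the part of this in the lost calls was not tested.

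Among the ratios, the difference of 0.32 between the arms of miR-142a at day 3 and that of -0.26 between miR-142a-3p and miR-223-3p at day 1 passed at an adjusted p of 0.05. The latter was reversed to 0.015 in the expression values. The difference of miR-142a-5p from miR-223-3p at day 3 was 0.41 and no longer passed with reads drawn down to equal depth (Fisher's exact test, adjusted p = 0.0031). Of the 8 nearest pairs, 7 were the same under TMM factors, and that of miR-342-3p with miR-342-5p was not. With a minimum mean of 100 CPM 3 were the same, but a higher minimum only removes candidates. The pairs kept were thus fixed by the levels of the partners, and their number is no check of the pattern. With 1 library per time point, no paired analysis was possible and no library could be left out.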
